A study of Mus musculus with 7 samples.

Results

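The response to low oxygen and the growth of blood vessels were followed through 10 genes in sorted lung cells: Hif1a, Egln1, Egln3, Bnip3, Bnip3l, Adm, Ndrg1, Vegfa, P4ha1 and Ero1l. They were taken by gene name from a table of 35641 genes, and all 10 had a row there. Female C57BL6 mice gave the lungs, in groups the labels call HF and LF without spelling the names out, and the study's title names obesity and oxidative stress of neutrophils. Per the labels the cells were sorted as CD45+ CD11b+ Ly6Clo Ly6G+ neutrophils, from 4 HF mice and 3 LF mice, and no treatment, genotype or age is given for either group. Libraries were prepared with a SMART-Seq kit, a method for RNA from few cells. The comparison asks how neutrophils of the lung differ between HF and LF mice.

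In cells with enough oxygen, the prolyl hydroxylases encoded by Egln1 and Egln3 modify the transcription factor subunit HIF-1 alpha, the product of Hif1a, which is then bound by the VHL protein and degraded. When oxygen is short the subunit accumulates, pairs with the product of Arnt and switches on target genes at sites with the core letters ACGTG or GCGTG. Known targets include the other genes of this set: the mitophagy receptors Bnip3 and Bnip3l, the secreted factors Vegfa and Adm, the stress response gene Ndrg1, the collagen prolyl hydroxylase subunit P4ha1 and the disulfide oxidase Ero1l of the endoplasmic reticulum. Egln1 and Egln3 are themselves targets. Because the subunit is controlled mainly through its breakdown, the mRNA of Hif1a is no measure of its protein. In neutrophils this pathway is known to support survival and glycolysis at inflamed, poorly oxygenated sites.

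The LF-labelled libraries went against their sort. Ly6g, which encodes the Ly6G surface protein, stood at 4431, 1301, 2378 and 4944 normalized counts in HF replicates 1 to 4, and at 0.749, 0 and 8.22 in the columns LF6, LF7 and LF8, which the labels number 1 to 3 instead. The 14 neutrophil markers summed to 432058 to 588002 normalized counts in HF and 12926 to 14352 in the LF-labelled libraries, while 15 monocyte and macrophage markers summed to 26997 to 37612 and 142015 to 150959. S100a8, a calprotectin subunit, averaged 41606 against 69.4, the monocyte receptor Ccr2 averaged 909 against 21847, and Csf1r averaged 14073 against 33667. None of these markers was at 0 in all libraries of either group. All 3 LF-labelled libraries show this, so no comparison can be made without them. Every difference below is one between the HF libraries and these libraries, and a difference between HF and LF mice cannot be told apart from a difference in cell type. In such bulk samples, fewer cells of a type and less RNA per cell cannot be told apart either. Reads assigned to genes came to between 13943173 and 18983351 per library.

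The promoters of the genes that differed most are shown because the core letters of the HIF binding site stand in genes of either direction. The windows run from 250 bases before the annotated start to 50 bases after it, are taken from RefSeq on GRCm38.p6, and are read 5′ to 3′ on the strand of the gene. Capitals mark ACGTG or GCGTG on either strand, so the opposite strand appears as CACGT or CACGC, and overlapping matches were all counted. The Egln3 window lies on chromosome 12, minus strand (chr12:54203825-54204124), that of Bnip3 on chromosome 7, minus strand (chr7:138909457-138909756), that of Vegfa on chromosome 17, minus strand (chr17:46032328-46032627), that of Egln1 on chromosome 8, minus strand (chr8:124949205-124949504), and that of P4ha1 on chromosome 10, plus strand (chr10:59323046-59323345).
Egln3: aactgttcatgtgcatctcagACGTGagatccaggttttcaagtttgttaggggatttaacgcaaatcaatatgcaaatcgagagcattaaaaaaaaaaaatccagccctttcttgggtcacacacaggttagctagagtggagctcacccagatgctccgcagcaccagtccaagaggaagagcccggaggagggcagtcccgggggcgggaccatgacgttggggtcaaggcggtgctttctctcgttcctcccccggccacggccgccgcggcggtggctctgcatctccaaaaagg
Bnip3: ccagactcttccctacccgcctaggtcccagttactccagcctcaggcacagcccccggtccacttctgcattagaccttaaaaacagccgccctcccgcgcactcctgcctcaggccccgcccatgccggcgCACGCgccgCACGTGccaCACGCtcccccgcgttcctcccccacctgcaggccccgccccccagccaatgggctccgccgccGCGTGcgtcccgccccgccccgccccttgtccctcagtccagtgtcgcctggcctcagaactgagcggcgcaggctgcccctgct
Vegfa: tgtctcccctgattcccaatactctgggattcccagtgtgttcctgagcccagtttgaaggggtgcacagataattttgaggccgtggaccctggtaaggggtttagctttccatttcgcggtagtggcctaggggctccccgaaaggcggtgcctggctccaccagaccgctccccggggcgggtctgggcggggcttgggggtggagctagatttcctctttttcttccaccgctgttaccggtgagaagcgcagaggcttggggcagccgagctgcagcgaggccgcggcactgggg
Egln1: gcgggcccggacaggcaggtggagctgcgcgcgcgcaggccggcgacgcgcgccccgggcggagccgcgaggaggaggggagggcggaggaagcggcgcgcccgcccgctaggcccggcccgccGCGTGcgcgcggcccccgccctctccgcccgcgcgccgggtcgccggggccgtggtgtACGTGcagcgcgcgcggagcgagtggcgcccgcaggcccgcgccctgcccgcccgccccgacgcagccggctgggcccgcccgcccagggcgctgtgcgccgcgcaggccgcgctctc
P4ha1: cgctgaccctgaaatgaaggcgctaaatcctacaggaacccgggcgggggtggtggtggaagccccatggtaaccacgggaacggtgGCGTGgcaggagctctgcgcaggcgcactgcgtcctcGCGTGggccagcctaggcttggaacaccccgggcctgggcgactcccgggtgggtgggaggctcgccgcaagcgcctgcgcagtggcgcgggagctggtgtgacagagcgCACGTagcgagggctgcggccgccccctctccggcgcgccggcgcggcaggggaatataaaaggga

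Egln3, higher in HF, held 1 match, starting at position -229 from the start. Bnip3, also higher, held 5, including the palindrome CACGTG whose ACGTG was counted on both strands, with first bases from -117 to -35. Egln1 held 2 and P4ha1 held 3, and both were lower in HF. The Vegfa window shown held 0, and a window at another annotated start of Vegfa held 2. Of all 32851 windows in the table, 19.6% held ACGTG, 32.4% held GCGTG and 43.8% held either. The table matched 8 of the 10 genes, Ero1l under its newer symbol Ero1a, and held no entry under the names Bnip3l and Ndrg1. Each of the 8 genes had a match in at least 1 window. Their windows had 54.7% to 86% G and C, against a median of 52.7% over all windows. Letters in a window are a description and do not show that a factor binds there.

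**Figure D1:**
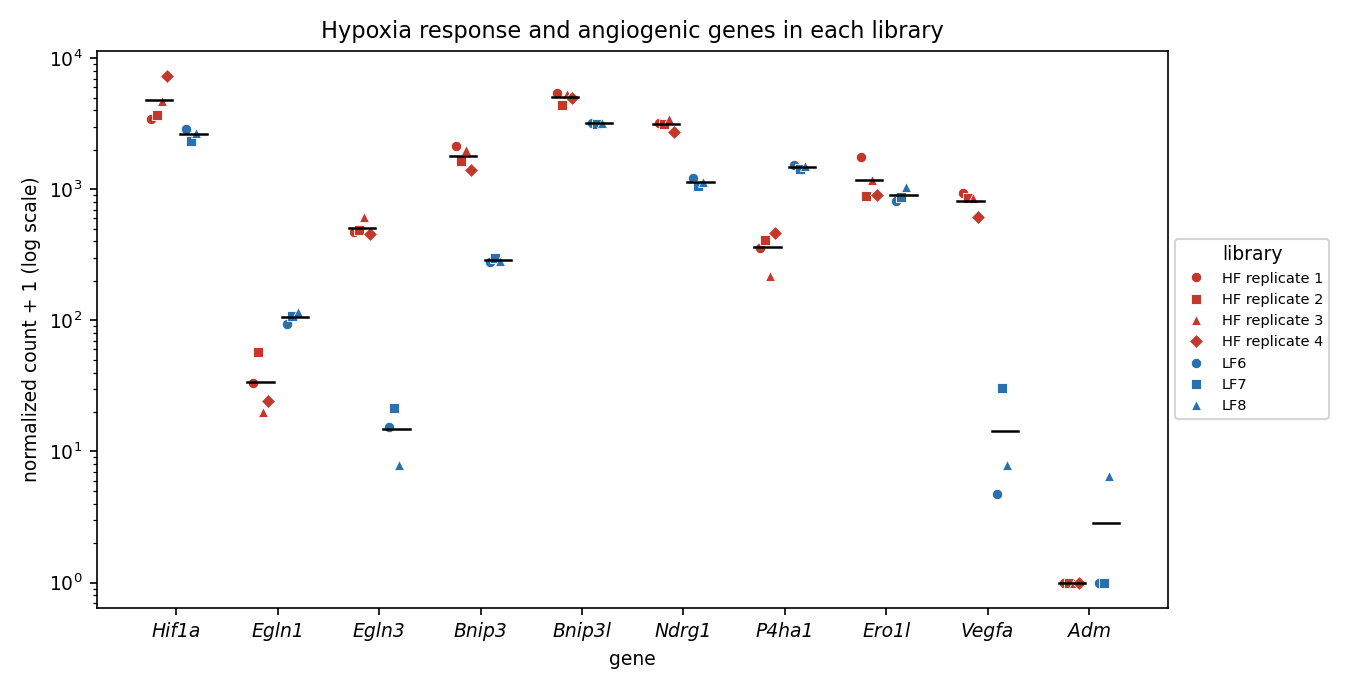
Each point is the normalized count of a gene in 1 library, with 1 added, on a log scale, for 4 HF libraries (red) and 3 LF-labelled libraries (blue); bars are group means. Egln3 and Vegfa stand between 455 and 937 in HF and at most at 29.3 in the LF-labelled libraries, while P4ha1 and Egln1 lie the other way and Ero1l overlaps.

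Of the 10 genes, 9 passed the filter on low values (mean over all libraries of 10 or more normalized counts) and were tested; Adm did not. Of these 9, 6 were higher in HF and 2 were lower at a limma adjusted p under 0.05, and Ero1l did not pass. Over all 14936 genes tested, 26.2% were higher and 28.7% were lower. The groups did not overlap for 8 of the 9 genes, and for 62.2% of all genes tested. The median difference was 0.80 on the log2 scale over the 9 genes and -0.16 over all genes. With all libraries set to equal totals, the median of all genes moved by -0.51, and 18.1% of genes were then higher and 42.1% lower. On that scale 4 of the 9 genes were higher (Egln3, Vegfa, Bnip3 and Ndrg1) and the same 2 were lower (Egln1 and P4ha1). The hydroxylases Egln1 and P4ha1 thus passed as lower on either scale, and Egln3, Bnip3, Ndrg1 and Vegfa as higher. Hif1a and Bnip3l passed as higher under the authors' scaling but not with equal library totals.

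Hif1a (ENSMUSG00000021109), the oxygen-regulated subunit, stood at 3409, 3680, 4744 and 7308 normalized counts in HF replicates 1 to 4 and at 2873, 2341 and 2696 in LF6, LF7 and LF8. The groups did not overlap, and HF replicate 4 was the highest library. The means were 4785 ± 1778 (SD, n = 4) and 2637 ± 271 (SD, n = 3), a log2 difference of 0.80 ± 0.25 (SE; limma adjusted p = 0.0256). This call depended on single libraries and on the scaling. It was lost without HF replicate 3 (adjusted p = 0.0517), without LF6 (0.0505), LF7 (0.0862) or LF8 (0.0629), with equal library totals (log2 difference 0.28, adjusted p = 0.309) and after quantile normalization (0.28, adjusted p = 0.254). Without HF replicate 4 the difference was 0.57 and passed (adjusted p = 0.0146). An antisense gene annotated across its exons, Gm15283, averaged 82.7 and 39.7, and the sources used here do not say if counting used strand.

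The hydroxylases of the HIF-1 alpha subunit went opposite ways. Egln3 (ENSMUSG00000035105) stood at 468, 487, 618 and 455 in HF replicates 1 to 4 and at 14.2, 20.3 and 6.85 in LF6, LF7 and LF8. Every HF library was above every LF-labelled library, where the gene had only 56 reads in all. Its means were 507 ± 74.9 (SD, n = 4) and 13.8 ± 6.72 (SD, n = 3), a 36.8-fold ratio and a log2 difference of 5.21 ± 0.37 (SE; limma adjusted p = 1.21e-05). Egln1 (ENSMUSG00000031987), the main oxygen sensor among these enzymes in most tissues, was lower in HF at 32.3, 56.6, 19.1 and 23.1, against 92.2, 107 and 114. Again the groups did not overlap, and the HF libraries held 107 reads of this gene together. The log2 difference was -1.76 ± 0.45 (SE; limma adjusted p = 0.0108), and it no longer passed without LF8 (-1.69, adjusted p = 0.0511). The third enzyme of the family, Egln2 (picked with its values known), ranged over 622 to 1259 and 653 to 749 (limma adjusted p = 0.38).

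A ratio of 2 genes within a library does not depend on the 1 factor that scales that library, apart from the added 1. It can change with quantile normalization, which was not run for the ratios. The log2 ratio of Egln3 to Egln1, with 1 added to each, was 3.82, 3.08, 4.95 and 4.24 in HF replicates 1 to 4 and -2.61, -2.34 and -3.88 in LF6, LF7 and LF8. Egln3 thus had the larger count of the pair in all 4 HF libraries, and Egln1 in all 3 LF-labelled libraries. The group means differed by 6.97 (exact two-sided permutation test, p = 0.0571), and 0.0571 is the smallest p that 4 against 3 libraries allow. The same smallest p was reached by all 4 ratios examined, and Benjamini-Hochberg adjustment over 4 equal values would leave it as it is. Egln3 lay higher and Egln1 lower in HF without overlap, so their ratio had to separate the groups and its p adds no support. The same holds for Vegfa to Adm, because Vegfa was higher without overlap and Adm had 0 reads in every HF library. The log2 ratio of Egln3 to Hif1a differed by 4.41, from -7.59 ± 0.82 (SD, n = 3) in the LF-labelled libraries to -3.18 ± 0.55 (SD, n = 4) in HF.

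**Figure D2:**
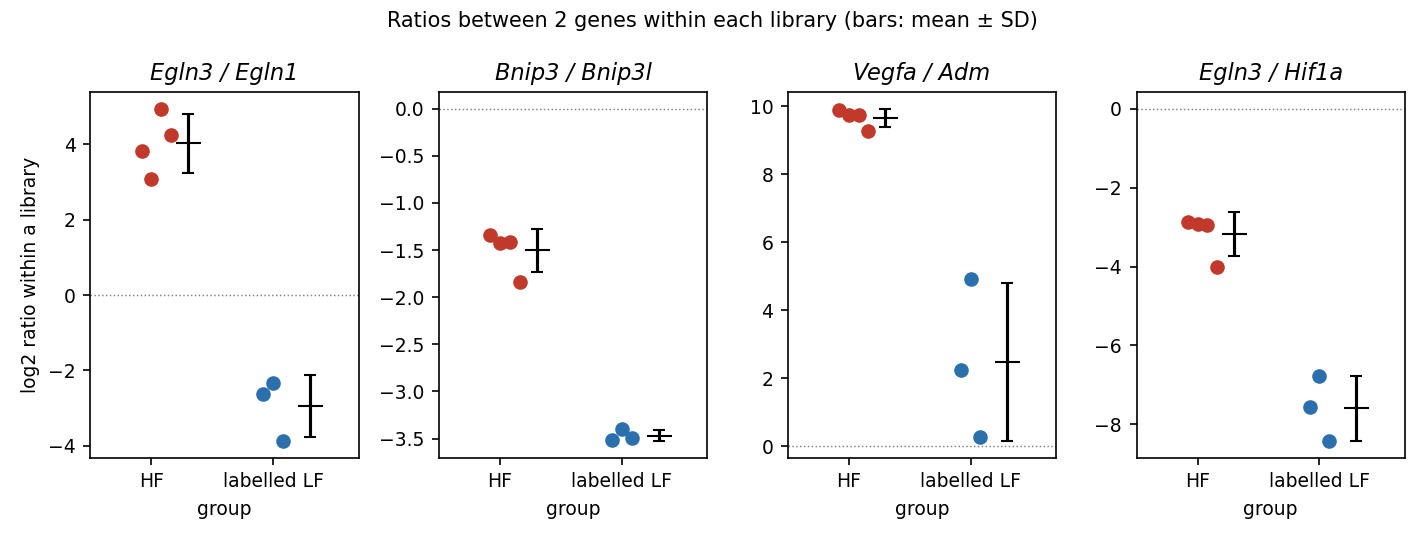
Log2 ratios of 4 pairs of genes within each library (vertical axis, 1 added to each count), with group means ± SD beside the points. The groups do not overlap in any pair, the ratio of Egln3 to Egln1 changes sign between the groups, and HF replicate 4 lies apart at -4.001 in the ratio of Egln3 to Hif1a.

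Both mitophagy receptors were higher in HF, with the larger log2 difference in Bnip3. These related outer membrane proteins bind autophagosome proteins and mark mitochondria for removal. Bnip3 (ENSMUSG00000078566) stood at 2143, 1646, 2005 and 1400 in HF replicates 1 to 4 and at 279, 299 and 282 in LF6, LF7 and LF8. The groups were far apart, and the LF-labelled libraries lay close together. Its means were 1798 ± 339 (SD, n = 4) and 287 ± 10.4 (SD, n = 3), a 6.27-fold ratio and a log2 difference of 2.62 ± 0.17 (SE; limma adjusted p = 5.81e-06). Bnip3l (ENSMUSG00000022051) stood at 5416, 4425, 5356 and 5002 against 3200, 3165 and 3187, again without overlap. Its log2 difference was 0.66 ± 0.086 (SE; limma adjusted p = 0.00034), but 0.14 with equal library totals (adjusted p = 0.173) and 0.08 after quantile normalization (adjusted p = 0.455). A processed pseudogene copy, Bnip3l-ps, was listed at 144 in HF and 82.2 in the LF-labelled libraries, and how reads shared with it were assigned is not given. The log2 ratio of Bnip3 to Bnip3l, again within each library, was -1.34, -1.43, -1.42 and -1.84 in HF and -3.51, -3.40 and -3.49 in the LF-labelled libraries, a difference of 1.96 (exact two-sided permutation test, p = 0.0571).

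Ndrg1 (ENSMUSG00000005125), a gene induced by hypoxia and differentiation in many cell types, stood at 3228, 3155, 3458 and 2735 in HF replicates 1 to 4. It stood at 1215, 1062 and 1142 in LF6, LF7 and LF8, below every HF library. Its log2 difference was 1.46 ± 0.11 (SE; limma adjusted p = 1.23e-05) and stayed past the threshold in each of the 17 alternatives, at 0.94 with equal library totals. Of the other Ndrg genes, Ndrg4 did not reach the filter, and Ndrg2 and Ndrg3 were tested and did not pass (limma adjusted p = 0.64 and 0.282). Ndrg2 was uneven, at 0, 127, 0 and 32.1 in HF, and Ndrg3 had means of 660 ± 246 (SD, n = 4) and 795 ± 12.2 (SD, n = 3). With equal library totals Ndrg3 was lower in HF at -0.85 (adjusted p = 0.0178), the only other alternative where it passed being the one without HF replicate 3.

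P4ha1 and Ero1l encode enzymes of the endoplasmic reticulum, and they differed in behaviour. P4ha1 (ENSMUSG00000019916), the catalytic subunit of the prolyl hydroxylase that stabilises collagen, stood at 353, 406, 218 and 463 in HF replicates 1 to 4 and at 1519, 1433 and 1505 in LF6, LF7 and LF8. All HF libraries were lower, with a log2 difference of -2.10 ± 0.25 (SE; limma adjusted p = 0.000202) and an LF mean 4.13-fold above the HF mean. Ero1l (ENSMUSG00000021831), which passes oxidising power to protein disulfide isomerase, stood at 1766, 883, 1172 and 911 against 808, 880 and 1037. Here the groups overlapped, and HF replicate 1 was the highest. The log2 difference of 0.33 ± 0.25 (SE) did not pass (limma adjusted p = 0.281), was 0.12 without HF replicate 1, and turned to -0.189 with equal library totals. Alveolar macrophage markers, 12 genes, summed to 34410 in HF replicate 1 and to 9379 to 11683 in the other HF libraries. They summed to 24429 to 26972 in the LF-labelled libraries, and their part in the Ero1l value was not tested.

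Of the secreted factors, Vegfa was much higher in HF and Adm was barely detected in any library. Vegfa (ENSMUSG00000023951), the main growth factor for blood vessel endothelium, stood at 937, 854, 861 and 614 in HF replicates 1 to 4 and at 3.75, 29.3 and 6.85 in LF6, LF7 and LF8. The lowest HF library was far above the highest LF-labelled library, where the 3 libraries had 5, 39 and 10 reads. The means were 817 ± 140 (SD, n = 4) and 13.3 ± 13.9 (SD, n = 3), a 61.4-fold ratio of these means. The log2 difference, taken between means of log values, was 6.28 ± 0.58 (SE, limma adjusted p = 5.29e-05). It was 5.96 with DESeq2 on the recovered reads. LF7 carried most of the reads of the LF-labelled libraries, and without it the difference was 7.05. Adm (ENSMUSG00000030790), which encodes the vasodilator peptide adrenomedullin, had 0 reads in all 4 HF libraries and in LF6 and LF7, and 8 reads in LF8. A count of 0 over the HF group allows up to 3 reads, or a mean of 0.908 normalized counts (counting error only). Adm did not reach the filter on low values and no fold is given. The log2 ratio of Vegfa to Adm, 9.87, 9.74, 9.75 and 9.27 in HF and 2.25, 4.92 and 0.277 in the LF-labelled libraries, rests on the pseudocount for Adm. In the authors' deposited table the log2 fold changes were 5.95 for Vegfa, 5.21 for Egln3 and 2.65 for Bnip3, and Adm had no adjusted p there.

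**Figure D3:**
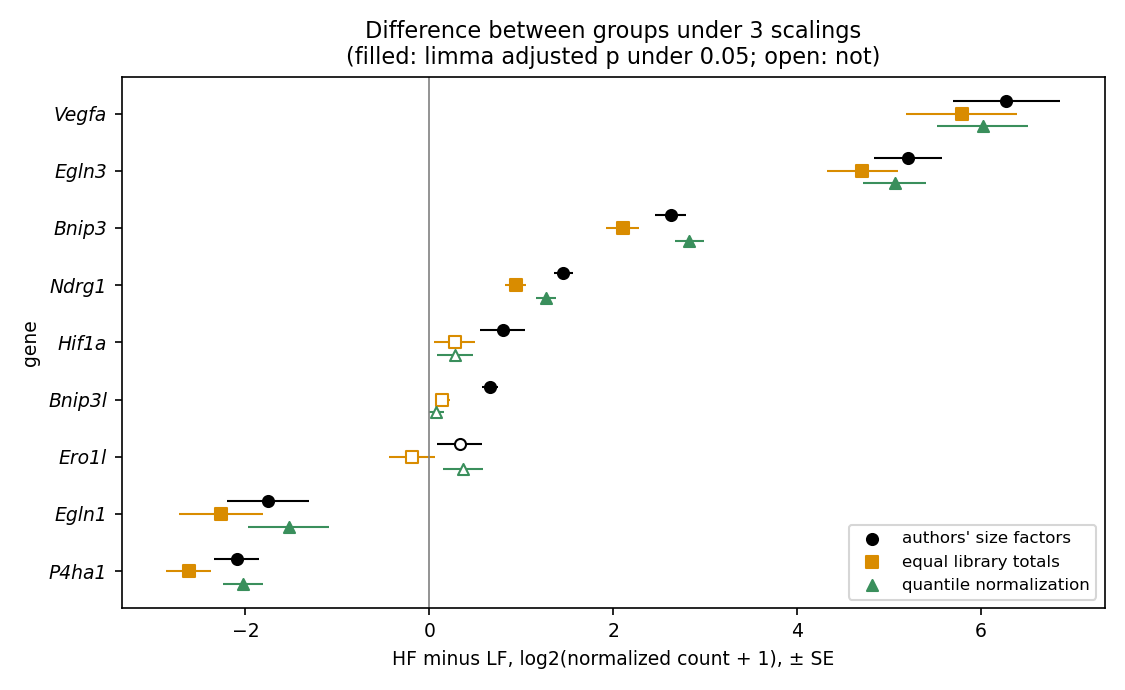
Difference between HF and the LF-labelled libraries for the 9 tested genes (horizontal axis, log2 of normalized count plus 1, ± SE) under 3 scalings; filled symbols passed a limma adjusted p of 0.05. Vegfa, Egln3, Bnip3, Ndrg1, Egln1 and P4ha1 stay past the threshold on their side of 0, Hif1a and Bnip3l pass under the authors' scaling only, and Ero1l passes under none and reverses with equal totals.

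Per kilobase of annotated exon (GENCODE vM21, which covers 99.96% of the gene identifiers), the order of levels differed between the groups. In HF, Bnip3l was the highest at 1309 ± 118 normalized counts per kilobase (SD, n = 4), followed by Hif1a at 812 and Bnip3 at 794, and the ranges of these neighbours overlapped. Ndrg1 at 477 stood apart from its neighbours. Ero1l at 224, Vegfa at 190.6 and Egln3 at 190.5 could not be ordered beyond their spread, while P4ha1 at 87.5 and Egln1 at 9.11 stood below them. In the LF-labelled libraries, Bnip3l was again the highest at 825 ± 4.59 (SD, n = 3), and Hif1a at 447 and P4ha1 at 361 followed without overlap. Ndrg1 at 173 and Ero1l at 172 overlapped, Bnip3 at 127 and Egln1 at 29.0 followed, and Egln3 at 5.18, Vegfa at 3.10 and Adm at 1.13 had overlapping neighbours at the bottom. Egln3 and Vegfa thus stood at percentile 74.5 of all tested genes in HF by level per kilobase and at percentiles 15.1 and 10.9 in the LF-labelled libraries.

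Within HF the genes did not share one order of libraries. HF replicate 4 had the highest Hif1a and also the lowest Egln3, Bnip3, Ndrg1 and Vegfa of the 4 HF libraries. HF replicate 1 had the lowest Hif1a and the highest Bnip3, Bnip3l, Vegfa and Ero1l. HF replicate 3 had the highest Egln3 and Ndrg1 and the lowest Egln1 and P4ha1. With 4 libraries these orders are a description. The spread was widest for Egln1, with an SD of 51.3% of the mean, Hif1a at 37.2% and Ero1l at 34.7%, and smallest for Bnip3l at 9.0% and Ndrg1 at 9.59%.

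Calls among the other genes of oxygen sensing were about as frequent as among all genes. Of 18 genes for HIF subunits and their oxygen-dependent control, 16 were tested, 6 were higher and 3 lower in HF and 7 did not pass, with a median log2 difference of 0.32. The 9 calls were 56.2% of the genes tested, against 26.2% higher and 28.7% lower over all genes. With equal library totals 3 were higher and 5 lower, against 18.1% and 42.1% of all genes. Siah1a and Siah2 encode ubiquitin ligases that target the prolyl hydroxylases, and they went opposite ways. Siah2 was lower, at 88.5 ± 31.1 (SD, n = 4) against 1045 ± 98.6 (SD, n = 3), a log2 difference of -3.61 (limma adjusted p = 2.6e-05), while Siah1a was higher at 781 against 359 (1.12, adjusted p = 0.000165). The coactivator Ep300 was higher at 4609 against 2937 (0.65), but only by 0.13 with equal library totals, where it did not pass. The chaperone Hsp90ab1, which stabilises client proteins including HIF subunits, was lower at 3715 against 8944. Chosen after their values were seen, Arnt, the HIF partner subunit, was higher at 2023 against 1176 (limma adjusted p = 0.00074), though not with equal library totals (adjusted p = 0.113). Vhl, the ligase subunit that recognises the hydroxylated subunit, had means of 840 and 1034 (adjusted p = 0.21).

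Other genes known to be induced by hypoxia also passed in both directions. Of 33 on the list, 25 were tested, 10 were higher and 7 lower in HF and 8 did not pass, with a median of 0.20. On this scale 26.2% of all genes were higher and 28.7% lower. With equal library totals 8 were higher and 8 lower, against 18.1% and 42.1% of all genes. Pfkfb4, an enzyme that stimulates glycolysis, averaged 12138 ± 540 (SD, n = 4) and 2918 ± 165 (SD, n = 3), a log2 difference of 2.06 (limma adjusted p = 2.1e-07). The glucose transporter gene Slc2a1 averaged 3040 and 563 (2.41, adjusted p = 2.81e-05). Mxi1, an antagonist of MYC, averaged 4067 and 1171, and the cyclin gene Ccng2 averaged 4752 and 1494. On the other side, and chosen after their values were seen, were the carbonic anhydrase gene Car9 at 5.83 against 74.4 (limma adjusted p = 0.0097, edgeR adjusted p up to 0.0557) and the mTORC1 inhibitor Ddit4 at 59.0 against 168 (adjusted p = 0.0035).

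Vessel growth genes other than Vegfa and Adm were called about as often as all genes. Of 28 angiogenic ligands and receptors, 18 were tested, 8 were lower and 2 higher and 8 did not pass, with a median of -0.56, while over all genes 28.7% were lower and 26.2% higher. With equal library totals 9 were lower and 2 higher, against 42.1% and 18.1% of all genes. Vegfc, a lymphatic growth factor, had 0 reads in HF and 322 in the LF-labelled libraries, where it averaged 77.5, at least 85.3-fold lower in HF (taking 3 reads as the floor of the whole HF group). The Vegfa receptor gene Flt1 averaged 150 and 882 (limma adjusted p = 0.000501), and the coreceptor gene Nrp1 averaged 182 and 2468 (adjusted p = 0.000188). The 2 that were higher were Apln, the apelin gene, and Prok2 (chosen after its values were seen), the prokineticin gene. Apln stood at 154, 150.4, 41.5 and 82.1 against 3.75, 0.751 and 0. Prok2 was uneven, at 48.4, 41.1, 13.5 and 191 in HF replicates 1 to 4 against 0, 0.751 and 0. Thrombospondin 1 (Thbs1), the gene of this list with the highest mean, stood at 1657 to 3570 in HF and 1350 to 2233 in the LF-labelled libraries and did not pass (adjusted p = 0.193). Calcrl, a receptor subunit gene for adrenomedullin, and the partner genes Ramp1 and Ramp2 did not pass. These and Ramp3 were also chosen with values seen. Calcrl had means of 643 and 364, Ramp1 of 1583 and 1683, and Ramp2 of 23.0 and 10.6. Ramp3 did not reach the filter, at means of 6.10 and 7.31. Endothelial markers, 10 genes, summed to 496 to 795 in HF and 545 to 667 in the LF-labelled libraries. Of the 9 tested, 0 were higher and 2 lower (Kdr, which is on both lists, and Eng, the 2 with the lowest p), and these lost their calls in 10 and 9 of the 17 alternatives. Platelet and erythroid markers, 7 genes, summed to 7421 to 8964 and 2410 to 3614, and their part in the Vegfa value was not tested. Fibroblast and smooth muscle markers (8 genes) summed to 1382 to 1949 and 139 to 222, and epithelial markers (10 genes) to 824 to 3321 and 324 to 968.

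Genes that work with Bnip3 and Bnip3l in mitophagy passed the test in both directions. Of 17, 16 were tested, 9 were higher and 5 lower in HF and 2 did not pass, with a median of 0.46. Over all genes 26.2% were higher and 28.7% lower. With equal library totals 5 were higher and 5 lower, against 18.1% and 42.1% of all genes. The autophagosome proteins that such receptors bind are encoded by Map1lc3b, Gabarap and their relatives. Map1lc3b averaged 16528 ± 1044 (SD, n = 4) and 4006 ± 203 (SD, n = 3), a log2 difference of 2.04 (limma adjusted p = 2.35e-07), and Gabarap averaged 13044 and 4220 (1.63), while Gabarapl1, chosen after its values were seen, had a difference of -0.84 (adjusted p = 0.0367). The call of Gabarapl1 was lost in 9 of the 17 alternatives, among them edgeR and quantile normalization (-0.32, adjusted p = 0.386). Optn, an autophagy receptor for ubiquitin-marked mitochondria, averaged 1003 and 24.9 (5.25), and the kinase gene Ulk1, which starts autophagy, averaged 4334 and 763 (2.49). Fundc1, another hypoxia-linked mitophagy receptor, chosen after its values were seen, was lower at 574 against 1056 (adjusted p = 0.0011).

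The partners of P4ha1 and Ero1l included more lower calls than higher ones. Of 15 genes of prolyl hydroxylation and disulfide formation, 11 were tested. Of these, 9 were lower and 0 higher and 2 did not pass, with a median of -1.78. Among all genes 28.7% were lower and 26.2% higher. With equal library totals 10 were lower, against 42.1% of all genes. P4hb, the partner subunit of P4ha1 and itself a disulfide isomerase, averaged 2137 ± 416 (SD, n = 4) and 7235 ± 142 (SD, n = 3), a log2 difference of -1.78 (limma adjusted p = 2.35e-05). The isomerase genes Pdia3, Pdia4 and Txndc5 were lower as well, at 2996, 227 and 148 against 8553, 1557 and 2226. The 2 that did not pass were P3h1 and Ero1lb, the paralog of Ero1l, at means of 1392 and 1259 (both chosen after their values were seen); Ero1lb was lower with equal library totals. The monocyte and macrophage markers, of which 11 of 15 were lower in HF with a median of -3.18, differ between the same libraries. So do the neutrophil markers, of which 13 of 14 were higher with a median of 9.95. Alveolar macrophage markers had 2 higher and 3 lower of 10 tested, close to the shares of all genes above. Their part in these differences was not tested.

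**Figure D4:**
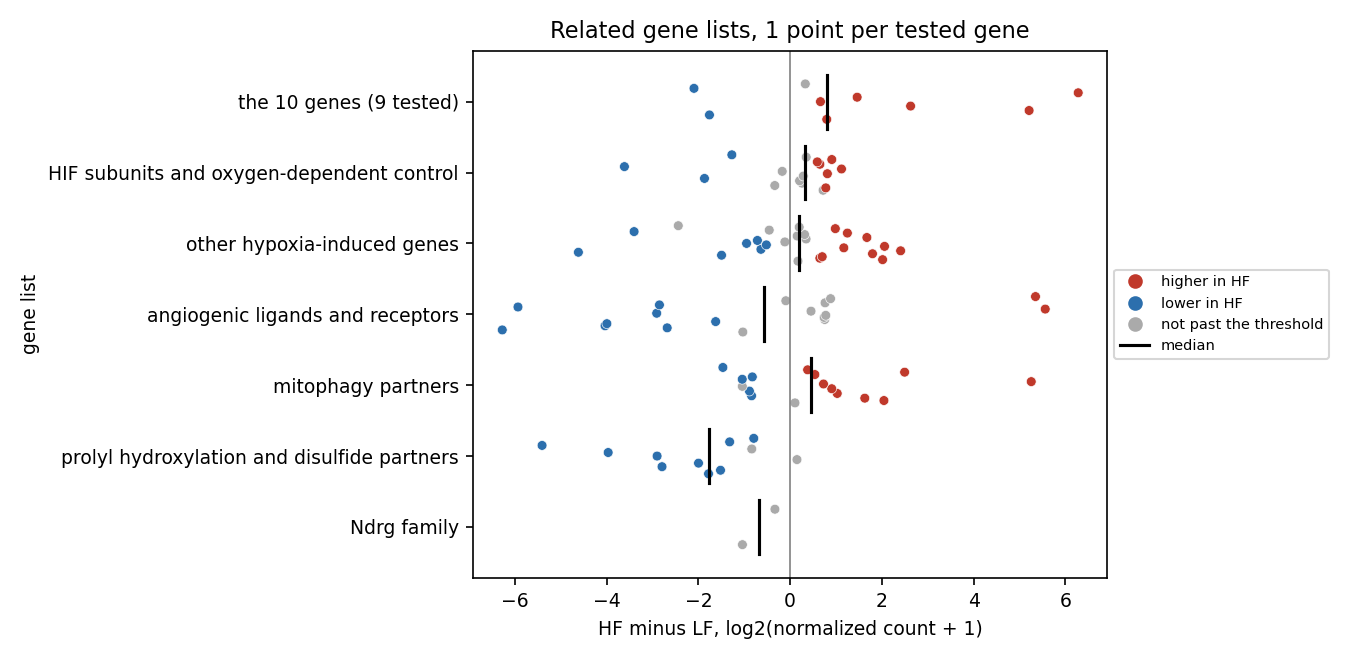
Each point is 1 tested gene at its difference between HF and the LF-labelled libraries (horizontal axis, log2 of normalized count plus 1), by gene list (vertical axis); red passed as higher, blue as lower, grey did not pass a limma adjusted p of 0.05, and black lines are medians. The medians run from 0.80 for the 9 tested genes to -1.78 for the partners of P4ha1 and Ero1l, against -0.16 for all genes.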

How the data were processed

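The table holds normalized counts of 7 libraries, per the deposited table's name. Divided by what 1 read is worth in its library, 100% of the values came within 0.01 of whole reads, so this signal was taken to be the authors' gene counts divided by 1 size factor per library. DESeq2 1.20.0, featureCounts 1.6.3 and STAR 2.6.1b are listed in the submitters' processing notes. Neither build nor annotation is named in the sources used here. The authors' log2 fold changes, test score and p-values are quoted only where their deposited table is named.

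The HF columns carry the labels' own titles. LF6, LF7 and LF8 were assigned to the LF group with no replicate numbers (0 columns unmapped). The p-values measure the spread between libraries. Genes with a mean of at least 10 entered limma 3.58.1 as log2 of the normalized count plus 1 (R 4.3.3, trend=TRUE), with Benjamini-Hochberg adjustment over all 14936 genes and a threshold of 0.05. The pseudocount understates changes of low genes. Ratios used exact permutation tests (scipy 1.17.1). Reads amplified without molecular tags are no independent molecules, and floors cover counting error only. Alternatives are given at the end. They include edgeR 4.0.16, which called 7624 genes on the recovered reads, and DESeq2 1.42.0. Figures used matplotlib 3.10.9.

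The 10 genes, the related gene lists and the ratios were chosen with earlier results of these data known. All 10 are named, with the 4 members of each related list of lowest p and the 1 of highest mean. Others are marked as chosen after their values were seen. Protein sequences were not used here.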

Additional observations from a re-analysis of the deposited data

Results flagged for a closer look

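Of 37 results examined for 1 HF library far from the other 3, 2 stood apart, and chance flags about 1 in 20. The log2 ratio of Egln3 to Hif1a was -4.001 in HF replicate 4, against -2.94 to -2.86 in the other HF libraries. Ndrg3 stood at 1026 normalized counts in HF replicate 3, against 505 to 589 in the others.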

How the results depend on the processing

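The limma test called 8211 genes, and between 6432 and 9024 over the 17 alternatives. Leaving out 1 library gave 6432 to 8470 calls, 5 or 6 members higher, and 1 or 2 lower, with 1 lower without LF8, where Egln1 did not pass. Members higher numbered 4 with equal library totals and with quantile normalization. Of all calls, 47.7% were higher in HF, and 30.0% with equal library totals. Vegfa, Egln3, Bnip3, Ndrg1 and P4ha1 kept direction and call in all 17 alternatives, Egln1 in 16, Bnip3l in 15 and Hif1a in 11. Ero1l, at 0.33 in the main fit, reversed with equal library totals (-0.189), a step that moved the median of all genes by -0.51. Why the library totals differ between the groups was not tested. All 4 ratios kept their direction with other pseudocounts, with equal library totals and with 1 library left out, but the design cannot reach 0.05. Adm was tested only without a filter and did not pass (adjusted p = 0.46). No paired analysis was possible because the LF columns carry none of the labels' replicate numbers. Depth limits Adm, Egln1 in HF, and Egln3 and Vegfa in the LF-labelled libraries.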
